A study of Mus musculus with 18 samples.

Results

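A set of 10 genes of pyroptosis and of the epithelial inflammasome was followed: the gasdermins *Gsdmd*, *Gsdmc2*, *Gsdmc3* and *Gsdmc4*, the inflammatory caspases *Casp1* and *Casp4*, the sensors *Nlrp6* and *Aim2*, the adaptor *Pycard* and the cytokine *Il18*. They are listed by name, and the list was chosen with earlier results of these data known. These were 10 of 47729 genes in the count table, and 10 of 10 passed the filter on low counts, which left 16937 genes. All 10 were well covered, with the lowest sum over the 3 libraries of a group at 1780 reads, for *Gsdmc3* in *Cldn2*KO recovery.

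Inflammasomes are protein complexes that form when a sensor such as NLRP6, in intestinal epithelium, or AIM2, which binds DNA in the cytosol, recruits the adaptor ASC, the product of *Pycard*, and through it caspase-1. Caspase-1 matures IL-18 and cuts gasdermin D, whose freed end opens pores in the plasma membrane, and mouse caspase-4 (also called caspase-11) cuts gasdermin D after it binds bacterial lipopolysaccharide. Gasdermin C proteins are pore formers of the gut epithelium that caspase-8 cuts and that type 2 cytokines are known to induce, and epithelial IL-18 is known for its part in repair and defence of the colon.

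The libraries held colon RNA of WT and *Cldn2*KO mice, a knockout of the tight junction protein claudin-2 that is not stated to be limited to a cell type. Per the methods of the study, the mice were on a C57BL/6 background, and littermates matched for age and sex served as WT; no age was given in the sources used here. Each genotype had 3 libraries of untreated controls, 3 of mice in recovery after colitis induced with dextran sulfate sodium (DSS), and 3 of mice given AOM/DSS, a single dose of the carcinogen azoxymethane (AOM) at 10 mg/kg with 3 cycles of 2.5% DSS. The labels carry that dosing text on every sample, so the dose of the recovery arm is not given apart. Nothing in the labels ties a library to an animal, and p-values therefore measure the spread between these samples.

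*Cldn2* was at 131, 44.5 and 127 CPM (counts per 1 M reads, on scaled library sizes) in WT control replicates 1, 2 and 3, and at no more than 0.557 CPM in any *Cldn2*KO library, as labelled. The 8 epithelial markers (*Epcam*, *Krt8*, *Cdh1*, *Vil1* and others) summed to between 9839 and 63141 CPM, and none was at 0 throughout a group. Libraries stood apart on position along the colon. The 4 posterior *Hox* genes (*Hoxb13*, *Hoxd13*, *Hoxa13*, *Hoxd12*), which mark the distal colon, summed to 470.2 to 851 CPM in 11 libraries, but to 1.83 CPM in WT control replicate 2 and to at most 1.22 CPM in the 6 recovery libraries, although the study names the distal colon as the source of the recovery RNA. Recovery and position along the colon therefore cannot be told apart, except through WT control replicate 2. *Xist*, a sex-linked gene, reached 100 CPM or more in 6 libraries and stood at no more than 1.16 CPM elsewhere. The 6 were replicates 2 and 3 of WT recovery, *Cldn2*KO recovery and *Cldn2*KO AOM/DSS, and no control or WT AOM/DSS library was among them. Although the study states matching for sex, *Xist* was thus uneven between recovery and control, and between the genotypes in AOM/DSS. Sex cannot be fully told apart from these comparisons.

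*Gsdmc2* (chr15:63824346-63845177), *Gsdmc3* (chr15:63857724-63878558) and *Gsdmc4* (chr15:63891264-63912297) lie in a row on the minus strand of chromosome 15 (GRCm38, GENCODE M21), and *Gsdmd* (chr15:75862327-75867408, plus strand) lies farther along the same chromosome. The 3 *Gsdmc* coding sequences were each 1443 bases long. *Gsdmc2* and *Gsdmc3* differed at 42 of 1443 aligned bases (97.09% identical), and each differed from *Gsdmc4* at 89 of 1437 (93.81%), whereas *Gsdmc4* and *Gsdmd* were 62.59% identical. Windows of 50 bases of the longest coding transcript occurred letter for letter in a transcript of another *Gsdmc* gene or pseudogene, *Gsdmd*, *Casp1* or *Casp4* in 47.7% of *Gsdmc2*, 46.6% of *Gsdmc3* and 38.6% of *Gsdmc4*. With windows of 100 bases the shares were 24.8%, 31.1% and 19.6%. How reads with several alignments were counted is not given in the sources used here, so the split of reads among these 3 genes is uncertain and their sum is given too. The first 120 coding bases, shown because they bear on that split, differed between the genes at 2 positions, in capitals.
Gsdmc2, coding bases 1 to 120: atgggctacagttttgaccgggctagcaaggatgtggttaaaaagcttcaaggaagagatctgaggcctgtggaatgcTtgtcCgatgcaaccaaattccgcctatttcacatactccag
Gsdmc3, coding bases 1 to 120: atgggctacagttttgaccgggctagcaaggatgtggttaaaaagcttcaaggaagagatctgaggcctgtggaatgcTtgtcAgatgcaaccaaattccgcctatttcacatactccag
Gsdmc4, coding bases 1 to 120: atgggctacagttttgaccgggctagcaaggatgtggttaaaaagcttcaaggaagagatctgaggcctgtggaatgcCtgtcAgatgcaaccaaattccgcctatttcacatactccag
The stretch with the most differences between *Gsdmc2* and *Gsdmc3* among those at the same coding position in all 3 genes had 8 between that pair and 15 among the 3 genes, again in capitals.
Gsdmc2, coding bases 1060 to 1179: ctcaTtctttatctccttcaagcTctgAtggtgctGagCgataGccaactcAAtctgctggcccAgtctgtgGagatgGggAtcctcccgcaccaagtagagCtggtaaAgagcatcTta
Gsdmc3, coding bases 1060 to 1179: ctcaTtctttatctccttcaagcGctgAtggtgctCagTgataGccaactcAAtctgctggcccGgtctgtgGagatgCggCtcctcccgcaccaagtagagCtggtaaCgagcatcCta
Gsdmc4, coding bases 1060 to 1179: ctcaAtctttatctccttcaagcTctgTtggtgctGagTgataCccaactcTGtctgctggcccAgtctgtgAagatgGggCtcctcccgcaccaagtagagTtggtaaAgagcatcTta

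Per base of exon, *Gsdmc4* was the most abundant of the 10 genes in both control groups. Mean levels in WT controls, in RPKM (CPM per kilobase of exon), were 685 for *Gsdmc4*, 457 for *Gsdmc2*, 197 for *Casp1* and 170.1 for *Gsdmd*. *Il18* and *Gsdmc3* followed at 115 and 115 RPKM, and *Nlrp6*, *Pycard*, *Aim2* and *Casp4* were at 71.6, 52.6, 29.0 and 20.8 RPKM. In WT recovery the order was different, with *Casp1* first at 295 RPKM and *Gsdmc3* at 29.7 RPKM. *Gsdmc2* was at 256, 848 and 267 RPKM in WT control replicates 1, 2 and 3, so its mean was carried by replicate 2. In that group the gaps from *Gsdmc4* to *Gsdmc2*, from *Gsdmc2* to *Casp1*, from *Casp1* to *Gsdmd*, from *Gsdmd* to *Il18* and from *Il18* to *Gsdmc3* were each smaller than the SD of at least 1 of the pair. The plot of levels by library shows every value, in CPM.

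**Figure D1:**
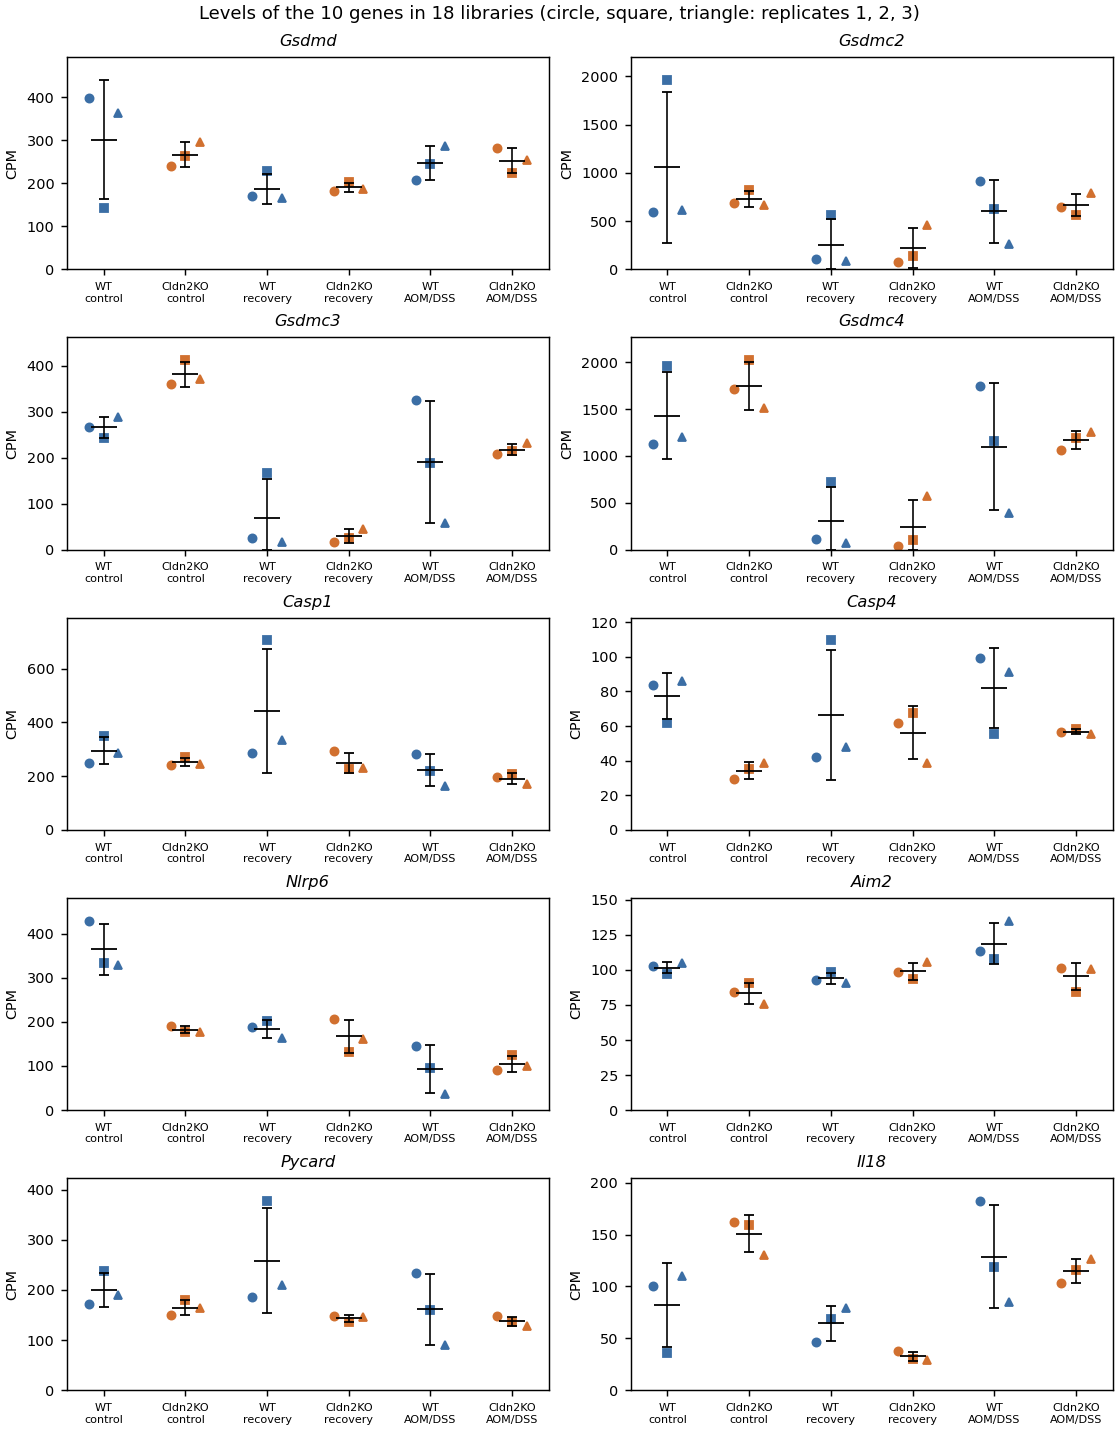
CPM of the 10 genes (vertical axes, each from 0) in the 18 libraries by group (horizontal axes), WT in blue and *Cldn2*KO in orange; the long dash is the mean and the bars are 1 SD of 3 libraries, stopped at 0. *Gsdmc2* and *Gsdmc4* are at or under 137 and 116 CPM in 4 of 6 recovery libraries and *Gsdmc3* at or under 45.9 CPM in 5, *Nlrp6* is highest in the 3 WT controls, and *Il18* lies between 29.4 and 37.8 CPM in *Cldn2*KO recovery.

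For *Gsdmc2*, *Gsdmc3* and *Gsdmc4*, every recovery library was below every control of its genotype. In *Cldn2*KO mice 3 of 10 genes passed the test for recovery against control, *Gsdmc3*, *Gsdmc4* and *Il18*, all lower, where 19.4% of all 16937 genes were called and 10% were called lower. In WT mice 1 of 10 was called, *Nlrp6*, also lower, against 22.2% of all genes called and 12.2% called lower. In bulk RNA fewer cells of a type and less RNA per cell cannot be told apart.

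*Gsdmc3* was at 361, 413 and 373 CPM in *Cldn2*KO control replicates 1, 2 and 3 and at 15.8, 25.6 and 45.9 CPM in *Cldn2*KO recovery. Every recovery library was below every control, with no overlap (log2 fold change -3.71, SE 0.77, adjusted p = 0.00441). *Gsdmc4* was at 1712, 2022 and 1507 CPM in the same controls and at 40.9, 102 and 569 CPM in recovery. The groups again did not overlap, but replicate 3 stood well above the other 2 recovery libraries (log2 fold change -2.88, SE 0.92, adjusted p = 0.0402). The call for *Gsdmc4* was lost when any 1 of the other 5 libraries of these groups was left out (adjusted p = 0.076 to 0.139), also with no filter on low counts and with the 6 libraries fitted alone (adjusted p = 0.11 and 0.0706). It was stronger without recovery replicate 3 (log2 fold change -4.61, adjusted p = 0.00697).

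*Gsdmc2* was at 693, 821 and 670.1 CPM in *Cldn2*KO controls and at 74.9, 137 and 458 CPM in *Cldn2*KO recovery. It did not overlap either but was not called (log2 fold change -1.71, SE 0.76, adjusted p = 0.134), and passed only without recovery replicate 3 (log2 fold change -2.78, adjusted p = 0.0357). For *Gsdmc2*, *Gsdmc3* and *Gsdmc4* summed to 1 feature, *Cldn2*KO recovery was lower than control (log2 fold change -2.54, SE 0.82, adjusted p = 0.0419). The summed change in WT recovery was of like size and was not called (log2 fold change -2.14, SE 0.81, adjusted p = 0.0702). The genotype difference in the recovery response of the sum was -0.40 (adjusted p = 0.885).

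In WT mice *Gsdmc2* was at 592, 1963 and 619 CPM in controls and 111, 560.0 and 82.9 CPM in recovery, *Gsdmc3* at 267, 243 and 289.5 against 24.6, 166 and 17.1 CPM, and *Gsdmc4* at 1128, 1961 and 1197 against 116, 721 and 72.5 CPM. All 3 were lower in each recovery library than in each control, and replicate 2 was the highest of the recovery libraries for all 3. The fitted log2 fold changes were -2.07, -1.95 and -2.24, with adjusted p = 0.0663, 0.0625 and 0.086, so none was called. Without WT control replicate 2, which was the highest control for *Gsdmc2* and *Gsdmc4*, *Gsdmc2* had a log2 fold change of -1.30, *Gsdmc3* one of -2.04 and *Gsdmc4* one of -1.97, again with no call (adjusted p = 0.223, 0.0664 and 0.146). Without WT recovery replicate 2 all 3 passed, with log2 fold changes of -3.46, -3.69 and -3.93 and adjusted p = 0.0133, 0.00324 and 0.0162. DESeq2 called all 3 (adjusted p = 0.0433, 0.014 and 0.0212), as did the fit with a term for *Xist* (log2 fold changes -2.97, -2.78 and -3.45). The difference between the genotypes in the recovery response was not called for any of them (log2 difference 0.37, -1.76 and -0.64, 95% interval for *Gsdmc4* -3.24 to 1.95). This difference moved with single libraries. For *Gsdmc2* it was -0.42 without WT control replicate 2, 1.73 without WT recovery replicate 2, -0.07 without WT recovery replicate 3 and -0.71 without *Cldn2*KO recovery replicate 3. Without WT recovery replicate 2 it was -0.04 for *Gsdmc3* and 1.03 for *Gsdmc4*, and without *Cldn2*KO recovery replicate 3 it was -2.37 for *Gsdmc4*.

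The summed level of the 3 genes was 252, 1447 and 172 CPM in WT recovery replicates 1, 2 and 3, and 132, 265 and 1072 CPM in *Cldn2*KO recovery. A single library of each genotype, WT replicate 2 and *Cldn2*KO replicate 3, thus stood apart, and the other 4 were at 265 CPM or less. These libraries also had the highest sums of their groups for epithelial markers (57854 and 48125 CPM) and smooth muscle markers (2021 and 1392 CPM). Their goblet cell sums were the highest and the lowest of their groups (20070 and 11271 CPM). Whether these marker levels bear on the gasdermin levels was not tested. The makeup differed as well. *Gsdmc4* held 59.1% to 62.1% of the 3 genes' reads in *Cldn2*KO controls and 31.1% to 53.0% in *Cldn2*KO recovery, while *Gsdmc2* held 25.0% to 26.3% in the controls and 42.7% to 56.9% in recovery. WT control replicate 2, the control without posterior *Hox* RNA, had a recovery-like split, with 47.1% *Gsdmc2* and 47.1% *Gsdmc4*, at the highest summed level of all 18 libraries (4167 CPM).

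**Figure D2:**
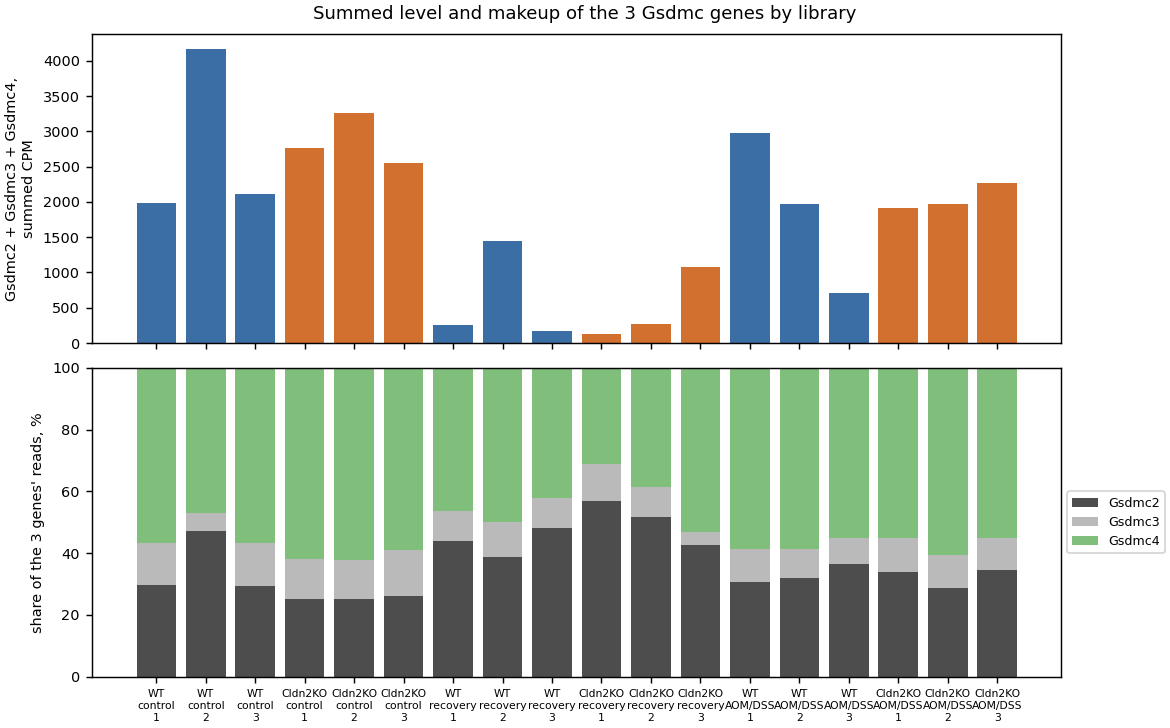
Top, summed CPM of *Gsdmc2*, *Gsdmc3* and *Gsdmc4* in each library (WT blue, *Cldn2*KO orange). Bottom, the share of the 3 genes' reads that each gene held, in percent. The sum is lowest in *Cldn2*KO recovery replicate 1 (132 CPM) and highest in WT control replicate 2 (4167 CPM), and *Gsdmc2* takes a larger share in recovery libraries and in that control.

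No gasdermin C gene was called in AOM/DSS against control in either genotype in the fit over all 18 libraries. *Gsdmc4* was at 1744, 1156 and 395 CPM in WT AOM/DSS and at 1058, 1195 and 1253 CPM in *Cldn2*KO AOM/DSS, and the WT group was wide, with replicate 3 lowest. That library also had the lowest goblet cell marker sum (2834 CPM over 5 markers, against 7711 to 10189 CPM in the other 5 AOM/DSS libraries) and an *Il1b* of 74.7 CPM against 2.95 and 5.34 CPM; whether these bear on its gasdermin level was not tested. *Gsdmc3* was at 326, 189 and 58.9 CPM in WT and 207, 214 and 232 CPM in *Cldn2*KO AOM/DSS, below the *Cldn2*KO controls in each *Cldn2*KO library but not called (log2 fold change -0.81, SE 0.69, adjusted p = 0.608). The 6 *Cldn2*KO libraries fitted alone called it (adjusted p = 0.00946).

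*Gsdmd*, the substrate of caspase-1 and caspase-4, was at 399, 143 and 364 CPM in WT controls, 169.8, 228 and 165 CPM in WT recovery and 208, 246 and 287 CPM in WT AOM/DSS. WT control replicate 2 was the lowest of all 18 libraries and the other 2 WT controls were the highest. In *Cldn2*KO mice *Gsdmd* was at 239.6, 264 and 297 CPM in controls, 182, 203 and 187 CPM in recovery and 282, 223 and 254 CPM in AOM/DSS. Recovery was below control without overlap in *Cldn2*KO mice (log2 fold change -0.48, SE 0.27, adjusted p = 0.238) and below 2 of 3 controls in WT mice (log2 fold change -0.69, SE 0.27, adjusted p = 0.0818), and neither was called over all 18 libraries. The 6 *Cldn2*KO libraries fitted alone called the *Cldn2*KO difference (adjusted p = 0.0391). Without WT control replicate 2 the WT difference passed (log2 fold change -1.05, adjusted p = 0.000606).

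The plot against *Hoxb13* sets the recovery levels beside the position marker. All 7 libraries without *Hoxb13* had *Il18* at or under 79.1 CPM, WT control replicate 2 included (35.9 CPM), whereas the 11 others had it at 85.3 CPM or more. *Gsdmd* was at or under 228 CPM in the same 7 libraries (143 CPM in WT control replicate 2). It did not divide by *Hoxb13*, since WT AOM/DSS replicate 1 and *Cldn2*KO AOM/DSS replicate 2 were at 208 and 223 CPM. *Gsdmc2* and *Gsdmc4* did not divide by *Hoxb13* either, since WT control replicate 2 had 1963 and 1961 CPM, above all 6 recovery libraries. With a term for *Hoxb13* at or above 10 CPM in the fit, which rests on WT control replicate 2 alone for its estimate, none of the 10 genes was called in *Cldn2*KO recovery against control. *Il18* then had a log2 fold change of -0.66 (adjusted p = 0.563), *Gsdmc3* one of -3.52 (adjusted p = 0.212) and *Gsdmc4* one of -3.63 (adjusted p = 0.306), *Gsdmc2* moved to -3.40 (adjusted p = 0.218), while *Gsdmd* turned to 0.93 (adjusted p = 0.165). In WT recovery the same term called *Gsdmc2* (log2 fold change -2.97, adjusted p = 0.0468) and no longer *Nlrp6*, and turned *Gsdmd* to 0.39 (adjusted p = 0.294) and *Il18* to 0.85 (adjusted p = 0.14). With a term for *Xist* instead, the 3 calls in *Cldn2*KO recovery held (adjusted p = 0.0042, 0.00669 and 0.0233).

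**Figure D3:**
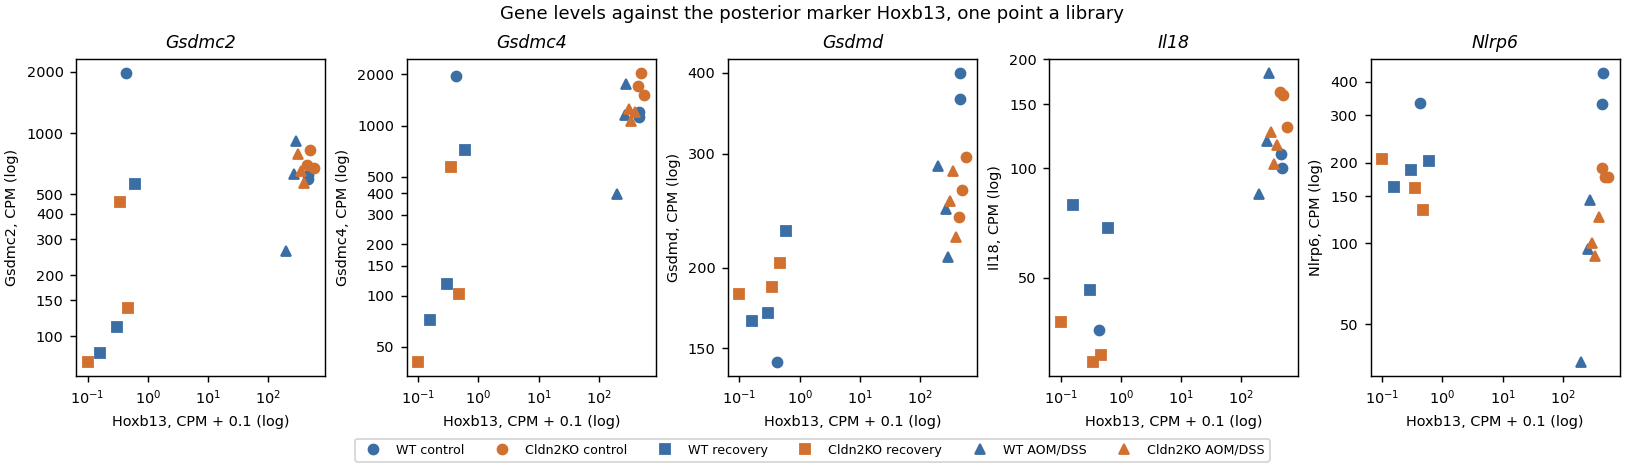
CPM of 5 genes (vertical axes, log scale) against CPM of *Hoxb13* plus 0.1 (horizontal axes, log scale), with 1 point for each of 18 libraries; color gives the genotype and shape the treatment. The 7 libraries at the left of each panel are the 6 recovery libraries and WT control replicate 2, which is high for *Gsdmc2* (1963 CPM) and low for *Gsdmd* and *Il18* (143 and 35.9 CPM).

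Markers of other cell types also moved with recovery. Of 6 smooth muscle markers 3 were called lower in WT and 6 in *Cldn2*KO recovery, and their sum was 3528 to 9601 CPM in controls and 667 to 2021 CPM in recovery. Of 10 macrophage markers 7 and 6 were called lower, with sums of 149 to 429.6 and 63.0 to 128 CPM. The 8 epithelial markers summed to 63141 CPM in WT control replicate 2 and to 16724 to 20404 CPM in the other controls. They summed to 22657 to 57854 CPM in recovery, so every control but that 1 was below every recovery library. Of the 8 markers 4 were called lower in WT and 0 in *Cldn2*KO mice, with medians of -0.71 and -0.03 on the log2 scale. Goblet cell markers had 1 of 5 called higher in each genotype, and tuft cell markers and enteric neuron and glia markers had 0 of 3 and 0 of 6 called. Of 4 tested neutrophil markers *S100a8* and *S100a9* were called higher in *Cldn2*KO recovery and 0 in WT recovery, whereas *Ly6g* had a log2 fold change of -3.54 without a call in *Cldn2*KO mice, and the sum of the 6 listed was 343 to 529 CPM in *Cldn2*KO controls and 17.7 to 85.3 CPM in recovery. Of 5 B and plasma cell markers 3 were called lower in WT and 2 in *Cldn2*KO recovery, with medians of -3.03 and -3.02. Of 7 tested T and NK cell markers 1 was called lower in WT and 3 were called higher in *Cldn2*KO recovery. The part of these shifts in the values above was not tested.

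*Il18* was called lower in *Cldn2*KO recovery. It was at 163, 159 and 130.2 CPM in *Cldn2*KO controls and 37.8, 30.6 and 29.4 CPM in *Cldn2*KO recovery, with a wide gap between the groups (log2 fold change -2.21, SE 0.35, adjusted p = 0.000935), and the call held when any 1 library was left out (adjusted p at most 0.0074). With the *Hoxb13* term the call was lost and the log2 fold change was -0.66 (adjusted p = 0.563). In WT mice *Il18* was at 101, 35.9 and 109.9 CPM in controls and 46.2, 68.7 and 79.1 CPM in recovery, which overlapped through control replicate 2 (log2 fold change -0.35, SE 0.34, adjusted p = 0.495). Without that control the WT change was -0.72 (adjusted p = 0.0524).

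Between genotypes the *Il18* difference had opposite signs in the controls and in recovery. *Cldn2*KO controls were all above the WT controls (log2 fold change 0.87, SE 0.34, adjusted p = 0.268), and *Cldn2*KO recovery libraries were all below the WT recovery libraries (log2 fold change -0.99, SE 0.34, adjusted p = 0.123). Neither was called. The genotype difference in the recovery response was -1.86 on the log2 scale (95% interval -2.88 to -0.84) and also missed the threshold (adjusted p = 0.0861), though DESeq2 called it (adjusted p = 0.00951). DESeq2 called the lower level in *Cldn2*KO recovery as well (adjusted p = 0.0476), as did the fit with the *Hoxb13* term (adjusted p = 0.0453), a comparison in which all 6 libraries lacked *Hoxb13*. Without WT control replicate 2 the control difference was 0.49 (adjusted p = 0.622). The WT recovery change, which enters the difference in response, was then -0.72 in place of -0.35. In AOM/DSS *Il18* was at 183, 119 and 85.3 CPM in WT and 103, 116 and 126 CPM in *Cldn2*KO libraries, which overlapped (log2 fold change -0.16, SE 0.34, adjusted p = 0.969). *Il18* (chr9:50554827-50581840, plus strand) overlaps *Bco2* and *Tex12* on the other strand, and with the strand setting of the counting not given its reads cannot be told apart from theirs in the shared bases.

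*Nlrp6*, the sensor of the epithelial inflammasome, was highest in WT controls, at 429.6, 333 and 329.7 CPM. It was at 145, 95.2 and 36.2 CPM in WT AOM/DSS, below every control (log2 fold change -1.98, SE 0.34, adjusted p = 0.00669). This was the 1 gene of 10 called in that comparison, where 10.4% of all genes were called and 6.58% were called lower. The call held when any 1 library was left out (adjusted p at most 0.0161), although leaving out AOM/DSS replicate 3, the lowest, brought the log2 fold change to -1.60. It was lost when the 6 libraries were fitted alone (adjusted p = 0.166), where 7 genes in all were called. In the same comparison 4 of 8 epithelial markers were called lower (sums of 19524 to 63141 CPM in controls and 9839 to 12894 CPM in AOM/DSS), as were 5 of 6 enteric neuron and glia markers, 2 of 6 smooth muscle markers and 1 of 7 T and NK cell markers, and 3 of 4 tested neutrophil markers were called higher. Of these *S100a9* did not overlap, *S100a8* and *Csf3r* did, and *Ly6g* had a log2 fold change of -0.45 without a call. The sum of the 6 listed neutrophil markers, most of it *Ly6g* in 5 of these 6 libraries, was 518, 0.917 and 466 CPM in WT controls and 218, 262 and 579.8 CPM in WT AOM/DSS. Their part in the *Nlrp6* difference was not tested.

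In WT recovery *Nlrp6* was at 188, 202 and 163 CPM, again below every control (log2 fold change -0.98, SE 0.33, adjusted p = 0.0441). The call was close to the threshold and was lost without WT control replicate 1 or 3 or without any 1 of the recovery libraries, with no filter on low counts (adjusted p = 0.0717), and with the *Xist* or the *Hoxb13* term (adjusted p = 0.133 and 0.242, and without 1 library 0.0705 to 0.147). The log2 fold change stayed between -1.06 and -0.84 under all 13 alternatives. In *Cldn2*KO mice *Nlrp6* was already low in controls, at 191, 177 and 177 CPM, and was at 207, 133 and 161 CPM in recovery and 90.0, 125 and 101 CPM in AOM/DSS.

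*Cldn2*KO controls were below WT controls for *Nlrp6* without overlap (95% interval of the log2 fold change -1.70 to -0.30, adjusted p = 0.175), which the fit of those 6 libraries alone called (adjusted p = 0.0455). *Cldn2*KO AOM/DSS was below *Cldn2*KO control without overlap and was not called (log2 fold change -0.79, SE 0.33, adjusted p = 0.271), although those 6 libraries fitted alone called it (adjusted p = 0.0178). In that comparison 6 of 6 smooth muscle markers were lower without overlap (sums of 7225 to 9601 CPM in controls and 2183 to 5476 CPM in AOM/DSS), as was *Ly6g*, the other 3 tested neutrophil markers were higher without overlap, and 2 of 8 epithelial markers did not overlap. None of the markers listed was called there, and their part in the *Nlrp6* values was not tested. The genotypes overlapped in recovery (log2 fold change -0.14, SE 0.33, adjusted p = 0.86) and in AOM/DSS (log2 fold change 0.19, SE 0.33, adjusted p = 0.959). The genotype difference in the AOM/DSS response was 1.195 (95% interval 0.21 to 2.18, adjusted p = 0.517). *Nlrp6* lies at chr7:140920902-140929192, on the plus strand.

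*Aim2*, the DNA sensor, was the steadiest of the 10 genes, with group means from 83.4 to 119 CPM. It was at 103, 97.1 and 105 CPM in WT controls and 84.3, 90.4 and 75.6 CPM in *Cldn2*KO controls, and at 113, 108 and 135 CPM in WT and 101, 84.0 and 101 CPM in *Cldn2*KO AOM/DSS. *Cldn2*KO libraries were lower in both pairs without overlap, with differences of -0.29 (adjusted p = 0.317) and -0.32 (adjusted p = 0.862) on the log2 scale, and in recovery the fitted difference was 0.07 (adjusted p = 0.788). None was called. Its annotated span (chr1:173350879-173466040, plus strand) overlaps *Cadm3* on the other strand.

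*Casp1*, the caspase of the inflammasome, and *Pycard*, which encodes its adaptor, had similar profiles. *Casp1* was at 286, 706 and 334 CPM and *Pycard* at 187, 378 and 209.9 CPM in WT recovery, against 249.9, 348 and 286 CPM and 172, 238 and 189 CPM in WT controls. Replicate 2 of WT recovery was the highest of all 18 libraries for both. That library also had the lowest TMM scaling factor, 0.778, where the highest of the 18 was 1.18. Whether this bears on its levels was not tested. Over the 18 libraries the log2 levels of *Casp1* and *Pycard* had a Pearson correlation of 0.93; the libraries share groups and scaling, so this is a description.

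*Cldn2*KO recovery libraries were at 293, 225 and 229.6 CPM for *Casp1* and 149, 136 and 145 CPM for *Pycard*. *Pycard* was lower than in WT recovery without overlap (log2 fold change -0.85, SE 0.28, adjusted p = 0.113), and *Casp1* overlapped in 1 library pair (log2 fold change -0.83, SE 0.28, adjusted p = 0.115). Neither was called, and the differences were -0.49 and -0.34 without WT recovery replicate 2 (adjusted p = 0.463 and 0.529). DESeq2 called both (adjusted p = 0.0459 and 0.0455). In AOM/DSS *Casp1* was at 283, 220.1 and 164 CPM in WT and 195, 207 and 169.8 CPM in *Cldn2*KO libraries and *Pycard* at 233, 159.9 and 91.3 and 147, 136 and 128 CPM, with overlap between the genotypes for both. *Pycard* lies at chr7:127989708-127993867 on the minus strand, where it overlaps the predicted gene *Gm45205* on the other strand, and *Casp1* at chr9:5298517-5307265 on the plus strand.

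*Casp4*, next to *Casp1* on chromosome 9 (chr9:5308828-5336783, plus strand), had the largest fitted difference of the 10 genes between the control groups. The WT controls were at 83.6, 61.9 and 86.1 CPM and the *Cldn2*KO controls at 29.1, 35.4 and 38.4 CPM. Every *Cldn2*KO control was below every WT control (log2 fold change -1.17, SE 0.32, adjusted p = 0.0923), and the difference was of like size without WT control replicate 2 (log2 fold change -1.33, adjusted p = 0.0891). It was not called by edgeR over all libraries. DESeq2 called it (adjusted p = 0.0172), as did edgeR on the 6 control libraries alone (adjusted p = 0.044).

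*Casp4* was at 41.8, 109.5 and 47.7 CPM in WT and 61.8, 67.5 and 38.8 CPM in *Cldn2*KO recovery. In AOM/DSS it was at 99.2, 55.5 and 91.5 CPM in WT and 56.7, 58.2 and 55.5 CPM in *Cldn2*KO libraries. In *Cldn2*KO mice both treated groups were above the controls without overlap, by a log2 fold change of 0.71 in recovery (adjusted p = 0.133) and 0.73 in AOM/DSS (adjusted p = 0.292). Neither was called over all 18 libraries, and both were when the 6 libraries compared were fitted alone (adjusted p = 0.0417 and 0.0188). The genotypes overlapped in both treatments. Averaged over the 3 treatments, *Cldn2*KO was lower by a log2 fold change of -0.65 (adjusted p = 0.0903), which was called by DESeq2 (adjusted p = 0.0213) and without WT AOM/DSS replicate 2 (adjusted p = 0.0462).

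Across the 4 comparisons of genotype, 0 of 10 genes were called in the edgeR fit over all 18 libraries. Other edgeR fits called *Casp4* and *Nlrp6* between controls, *Il18* in recovery and *Casp4* on average, as given with those genes. The shares of all genes called were 1.17% in controls, 0.974% in recovery, 0.0059% in AOM/DSS and 1.5% on average over the treatments, shares at which a list of 10 genes would hold few calls. At an unadjusted p under 0.05 there were 4, 3, 1 and 4 genes, against 13.1%, 19.9%, 5.6% and 18.2% of all genes. DESeq2 called 1 gene in controls, 3 in recovery, 0 in AOM/DSS and 1 on average. The genotypes did not overlap for 5 of 10 genes in controls (*Gsdmc3* and *Il18* higher, *Casp4*, *Nlrp6* and *Aim2* lower in *Cldn2*KO), for 2 of 10 in recovery (*Il18* and *Pycard*, lower) and for 1 of 10 in AOM/DSS (*Aim2*, lower). The background shares were 22.3%, 23.9% and 11.3%. Median log2 fold changes over the 10 genes were -0.25, -0.30 and -0.06, and over all genes they were within 0.01 of 0. Against controls they were -0.52 in WT and -0.34 in *Cldn2*KO recovery and -0.34 and -0.32 in AOM/DSS, where the medians of all genes lay between -0.04 and 0.01.

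Against controls, the groups did not overlap for 4 of 10 genes in WT recovery (background 37.7%), for 8 of 10 in *Cldn2*KO recovery (background 40.3%), for 2 of 10 in WT AOM/DSS (background 32.2%) and for 7 of 10 in *Cldn2*KO AOM/DSS (background 29.1%). In that last comparison edgeR over all 18 libraries and DESeq2 each called 0 of 10 genes, whereas edgeR on the 6 libraries alone called 3 (*Gsdmc3*, *Nlrp6* and *Casp4*). In the fit over all 18 there were 2 at an unadjusted p under 0.05 (background 0.195% called and 15.2% at that p). Neither genotype difference in response was called for any of the 10 genes in that fit, where 0.13% of all genes were called for the recovery response and 0.0118% for the AOM/DSS response. At an unadjusted p under 0.05 there were 1 and 2 genes (background 18.5% and 8.44%), and DESeq2 called 1 and 0. The comparisons of a treatment and of a genotype share their control libraries and are given side by side only. *Gsdmc2*, *Gsdmc3* and *Gsdmc4*, near-identical copies with correlated levels, were counted as separate genes. All of them were among the genes without overlap in both recovery comparisons, so the 10 genes are not independent.

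**Figure D4:**
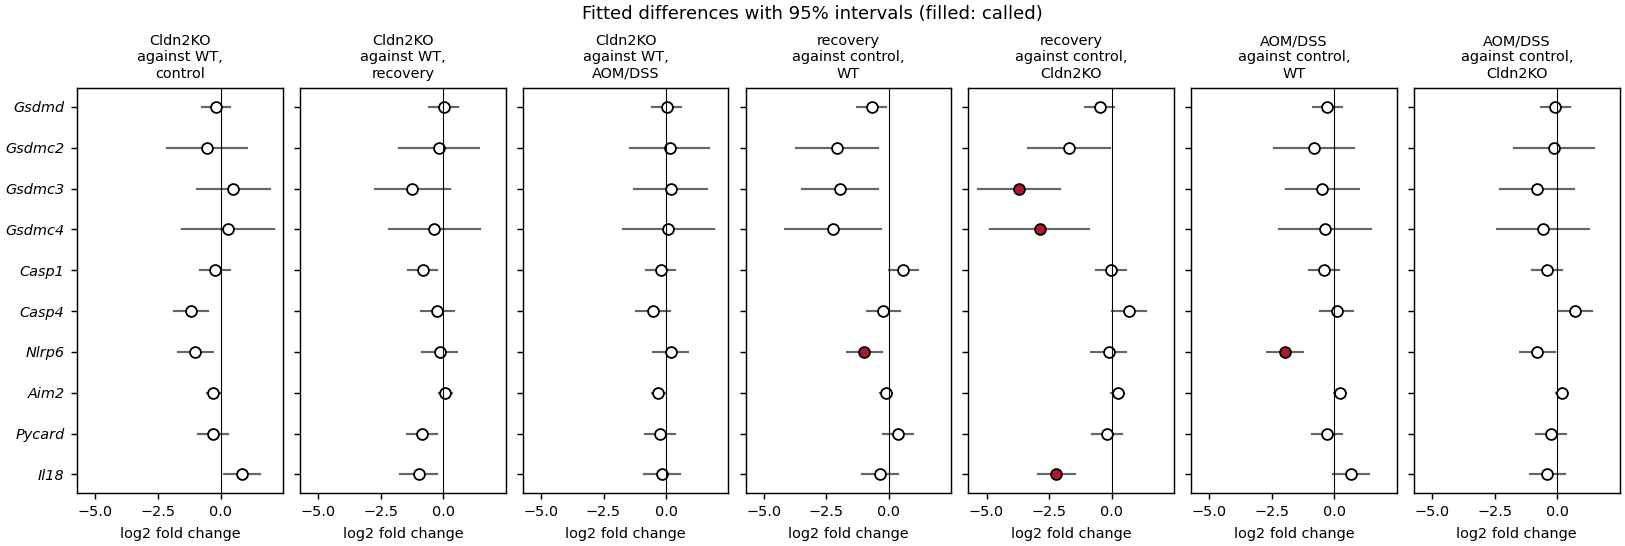
Fitted log2 fold changes (horizontal axis, dots) with 95% intervals (lines) of the 10 genes (rows) in 7 comparisons (panels), from the edgeR fit over 18 libraries; filled dots passed the threshold of 0.05 on the adjusted p. The 5 filled dots are *Gsdmc3*, *Gsdmc4* and *Il18* in *Cldn2*KO recovery and *Nlrp6* in WT recovery and WT AOM/DSS, and the intervals of *Gsdmc2*, *Gsdmc3* and *Gsdmc4* are the widest, at -1.54 to 2.12 for *Gsdmc4* between the control groups.

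Of 66 other genes of the pathway in 7 lists, 55 were tested. These lists too were chosen with earlier results of these data known, which limits any comparison of their counts with the shares of all genes. In controls 7 were lower and 0 higher in *Cldn2*KO mice, against 1.05% of all genes lower and 0.124% higher. The count lower was 0 without *Cldn2*KO control replicate 1, 1 without replicate 2 of that group, and 17 with DESeq2. Among them were *Gm12250* (encoding IRGB10, an interferon-induced GTPase that attacks bacterial membranes), at 16.2, 24.7 and 19.1 CPM in WT and 0.345, 1.22 and 1.24 CPM in *Cldn2*KO controls (log2 fold change -4.42, SE 0.73, adjusted p = 0.00698), and *Gbp3*, of the guanylate-binding proteins, with a log2 fold change of -2.16 (adjusted p = 0.0313). Under 14 alternatives the call held in 13 for *Gm12250*, which lost it without *Cldn2*KO control replicate 1 (adjusted p = 0.0673), and in 8 for *Gbp3*. *Il18bp*, whose product binds and blocks IL-18, was at 44.7, 16.8 and 54.2 CPM in WT and 4.63, 4.11 and 13.5 CPM in *Cldn2*KO controls (log2 fold change -2.38, SE 0.53, adjusted p = 0.0404). All 3 *Cldn2*KO controls were below all WT controls for *Il18bp*, the reverse of *Il18*, and its call was lost without *Cldn2*KO control replicate 1 (adjusted p = 0.238) and in 6 other alternatives of 14. *Retnlb*, a goblet cell protein of type 2 responses (log2 fold change -6.61, adjusted p = 0.0364), and the protease *Gzmb* (-4.64, adjusted p = 0.0398) rested on WT control replicate 2, at 215 and 22.1 CPM, and neither passed without it (adjusted p = 0.135 and 0.149).

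In recovery 4 of 55 were lower and 0 higher in *Cldn2*KO mice (all genes 0.425% and 0.549%), among them *Gm12250* (log2 fold change -3.34, adjusted p = 0.038), *Zbp1*, a nucleic acid sensor (-2.93, adjusted p = 0.0271) and *Gbp3* (-2.42, adjusted p = 0.0327). *Zbp1* was at 50.3, 141 and 25.0 CPM in WT and 7.87, 5.47 and 14.96 CPM in *Cldn2*KO recovery, with WT replicate 2 far above the rest. Without that library none of these 3 passed (adjusted p = 0.108 to 0.156). The count lower was 0 without WT recovery replicate 2, without *Cldn2*KO recovery replicate 2 and with the 6 libraries fitted alone, and 9 with DESeq2. In AOM/DSS 0 of 55 were called in either direction. On average over the treatments 13 were lower and 0 higher (all genes 1.21% and 0.289%). The count lower was 8 to 14 when 1 library was left out, at 8 without *Cldn2*KO control replicate 1 or 2, *Cldn2*KO recovery replicate 2, WT AOM/DSS replicate 3, or *Cldn2*KO AOM/DSS replicate 1 or 2, and 8 with the *Xist* term. Of those lower, *Gm12250* (-3.10, adjusted p = 0.000603) and *Zbp1* (-1.79, adjusted p = 0.00619) were called under all 24 alternatives and *Gzma* (-3.57, adjusted p = 0.0264), *Gzmb* (-2.42, adjusted p = 0.0348) and *Retnlb* (-3.10, adjusted p = 0.0375) under 15 of 24, 13 of 24 and 9 of 23. The medians over the 55 genes were -0.53 in controls, -0.09 in recovery, -0.26 in AOM/DSS and -0.37 on average.

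Some T and NK cell and B and plasma cell markers were called lower in *Cldn2*KO mice. Of 7 tested T and NK markers 3 were called lower in *Cldn2*KO controls, and the sum of the 8 listed was 8.18 to 71.2 CPM in WT, with replicate 2 highest, and 1.17 to 7.64 CPM in *Cldn2*KO controls. The 5 B and plasma cell markers summed to 732 to 878 CPM in WT and 13.04 to 139 CPM in *Cldn2*KO controls, with 1 called lower. In recovery the B and plasma cell sums were 90.0 to 128 CPM in WT and 15.9 to 20.4 CPM in *Cldn2*KO libraries, with 1 marker called lower, and the T and NK sums 21.8 to 61.0 and 11.4 to 17.5 CPM, with 0 called. In AOM/DSS 0 markers of either list were called and the sums overlapped, at 6.17 to 11.6 CPM in WT and 4.44 to 7.23 CPM in *Cldn2*KO libraries for T and NK cells and 241 to 467 and 154 to 346 CPM for B and plasma cells. Macrophage markers, with 0 of 10 called in any of the 3 treatments, summed to 85.5 to 128 CPM in WT and 63.0 to 75.4 CPM in *Cldn2*KO recovery without overlap, and the sums overlapped in controls and in AOM/DSS. Smooth muscle markers were higher in *Cldn2*KO than in WT controls without overlap for 6 of 6 (7225 to 9601 against 3528 to 5313 CPM in sum), and 0 were called. The part of these markers in the lower interferon and granzyme genes was not tested. Nor was their part in the *Casp4* and *Nlrp6* differences between the control groups.

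Against controls, 2 of 55 were higher and 8 lower in WT recovery (all genes 10% and 12.2%). The counts were 7 higher and 11 lower without WT control replicate 2, 0 and 7 without WT recovery replicate 2, and 1 to 2 higher and 3 to 5 lower without any other of these libraries. With the *Hoxb13* term 2 were higher and 2 lower, and with the *Xist* term 1 and 3. *Ninj1*, whose product ruptures the membrane after pore formation (log2 fold change 0.73, adjusted p = 0.0133), and *Brcc3*, an NLRP3 deubiquitinase (0.57, adjusted p = 0.0111), were higher, and *Gbp5* (-2.56, adjusted p = 0.00413), *Gbp2* (-2.08, adjusted p = 0.0293), the sensors *Mefv* (-2.44, adjusted p = 0.0118) and *Nlrp1b* (-1.21, adjusted p = 0.0292) and *Nlrp10* (-2.30, adjusted p = 0.0343) were among those lower. When 1 library was left out, *Gbp5* and *Mefv* kept the call each time, *Brcc3* lost it without WT recovery replicate 2, *Ninj1* without that library or WT control replicate 1, and *Gbp2*, *Nlrp1b* and *Nlrp10* lost it in 4 or 5 of 6 cases. In *Cldn2*KO recovery 12 of 55 were higher and 7 lower (all genes 9.43% and 10%), and without 1 library 8 to 11 were higher and 2 to 5 lower. *Retnlb* was at 0.739, 1.39 and 0.323 CPM in *Cldn2*KO controls and 81.1, 73.7 and 458 CPM in recovery (7.96, adjusted p = 0.00261). *Il18r1*, a chain of the IL-18 receptor, was higher with overlap (2.84, adjusted p = 0.00867), *Gsdme*, another gasdermin, was higher (2.55, adjusted p = 0.0204), and *Gzma* and *Gzmb* were higher (log2 fold changes 5.71 and 4.24, adjusted p = 0.014 and 0.00983). T and NK cell markers moved with the granzymes, with 3 of 7 called higher, a median of 2.10 and sums of 1.17 to 7.64 CPM in *Cldn2*KO controls and 11.4 to 17.5 CPM in recovery, and their part was not tested.

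*Gbp2* (-2.98, adjusted p = 0.00666), *Gbp5* (-2.03, adjusted p = 0.0183), *Zbp1* (-1.91, adjusted p = 0.0199) and *Gbp3* (-1.54, adjusted p = 0.0318) were lower in *Cldn2*KO recovery, and *Nlrp10* (-2.62, adjusted p = 0.0215) too. When 1 library was left out, *Retnlb*, *Gzmb*, *Il18r1* and *Gbp2* kept the call each time, and *Gzma*, *Gsdme*, *Nlrp10*, *Gbp5*, *Zbp1* and *Gbp3* lost it in 2 to 4 of 6 cases. Over all alternatives the call held in 11 of 12 for *Retnlb* and in 12 of 13 for *Gzmb*, *Il18r1* and *Gbp2*. The smallest log2 fold changes among them were 3.91 for *Retnlb*, 0.52 for *Gzmb*, 1.25 for *Il18r1* and -0.90 for *Gbp2*. With the *Hoxb13* term 1 of 55 was higher and 0 lower in *Cldn2*KO recovery, and the direction turned for *Gsdme*, to -1.02 (adjusted p = 0.241), and for *Nlrp10*, to 2.48 (adjusted p = 0.142) in *Cldn2*KO and 2.24 (adjusted p = 0.0435) in WT mice. WT control replicate 2 had a *Gsdme* of 129.8 CPM, above all recovery libraries, and an *Nlrp10* of 0.327 CPM, below them.

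In WT AOM/DSS 3 of 55 were higher and 4 lower (all genes 3.81% and 6.58%). The counts were 0 and 0 with the 6 libraries fitted alone, 0 and 1 without WT AOM/DSS replicate 3, 8 and 9 with DESeq2, and 0 and 4 or 1 and 2 when WT control replicate 1 or replicate 2 was left out. *Gsdma*, a gasdermin of skin and upper gut (log2 fold change 3.45, adjusted p = 0.0374), *Il1b*, a cytokine that caspase-1 matures (3.17, adjusted p = 0.0476), and *Dhx15*, an RNA helicase that can partner NLRP6 (0.60, adjusted p = 0.0276), were higher. *Il1b* was at 2.95, 5.34 and 74.7 CPM and so rested on replicate 3; without it the log2 fold change was 0.44 (adjusted p = 0.706). *Il18bp* (-1.69, adjusted p = 0.0493), *Txnip* (95% interval -1.56 to -0.44, adjusted p = 0.0317), *Irf1*, a transcription factor of interferon responses (-0.99, adjusted p = 0.00824), and *Naip1*, a sensor of bacterial secretion systems (-0.73, adjusted p = 0.0421), were lower. Of these 7, *Irf1* alone kept the call whichever library was left out, and the others lost it in 3 to 5 of 6 cases. In *Cldn2*KO AOM/DSS 0 of 55 were called in either direction (all genes 0.0768% higher and 0.118% lower), while DESeq2 called 4 higher and 2 lower and the fit of those 6 libraries alone called 6 and 3.

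**Figure D5:**
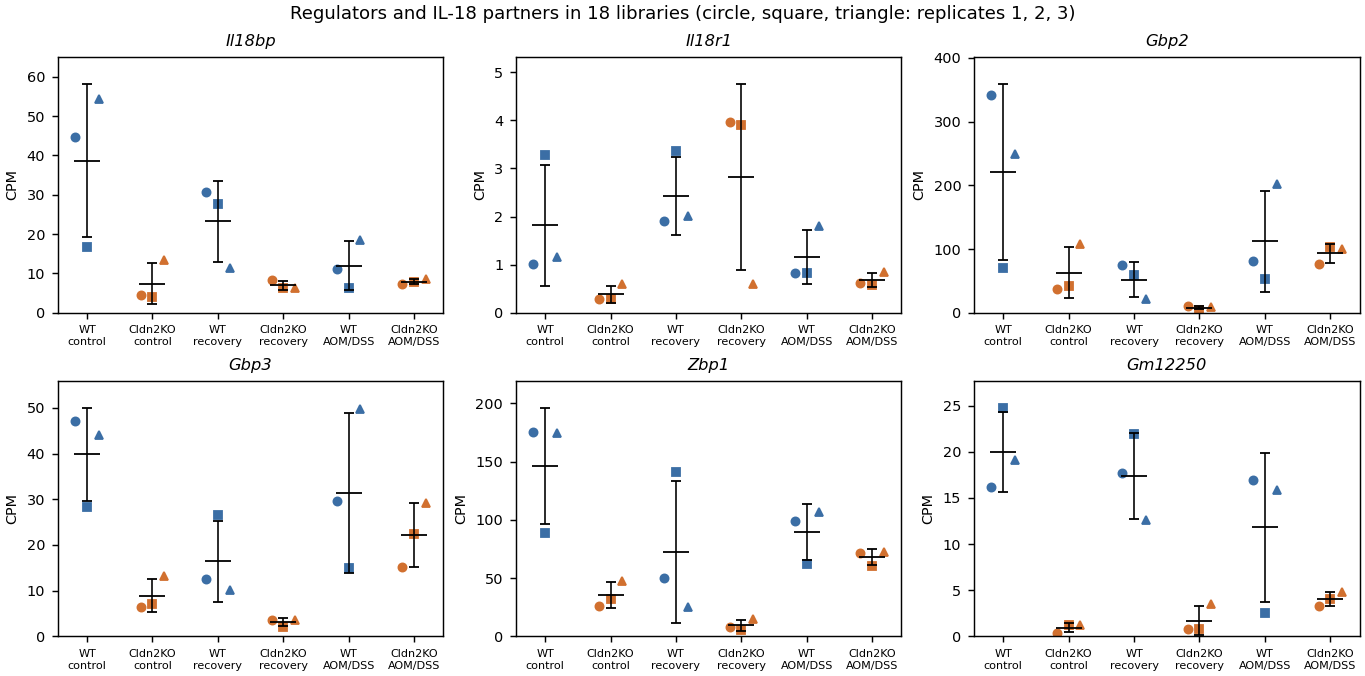
CPM of 6 pathway genes (vertical axes, from 0) in 18 libraries by group (horizontal axes), WT in blue and *Cldn2*KO in orange; the long dash is the mean and the bars are 1 SD of 3 libraries, stopped at 0. *Il18bp*, *Gbp3*, *Zbp1* and *Gm12250* are lower in all 3 *Cldn2*KO controls than in all 3 WT controls, and *Gm12250* is at 3.54 CPM or less in *Cldn2*KO recovery.

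The genes most like each member over the 18 libraries, by Pearson correlation of log2 CPM, were picked as the top 3 of all tested genes. For *Gsdmc4* they began with *Gsdmcl2* (r = 0.972), a pseudogene that lies between *Gsdmc3* and *Gsdmc4*, and *Ttc16* (r = 0.946). For *Gsdmc3* the first was *Sh3bgr* (r = 0.944), for *Il18* *Scml4* (r = 0.946), for *Nlrp6* *Slc25a20* (r = 0.920), for *Gsdmd* *Muc1* (r = 0.889), for *Aim2* *Socs3* (r = 0.894) and for *Pycard* *Tstd1* (r = 0.906). The first for *Casp1* were *Atp5j2* (r = 0.971), *Cox7c* (r = 0.970) and *Cox8a* (r = 0.968), all genes of mitochondrial oxidative phosphorylation, and the weakest first match was that of *Casp4*, *Dennd2d* (r = 0.793). Among the members *Gsdmc2*, *Gsdmc3* and *Gsdmc4* had correlations of 0.92 to 0.97 with each other, and *Il18* had 0.73 with *Gsdmc3*.

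RefSeq promoters (GRCm38.p6, 250 bases before to 50 after the start site) matched 7 of the 10 genes: *Aim2*, *Pycard*, *Nlrp6*, *Casp1*, *Casp4*, *Il18* and *Gsdmc3*; *Gsdmd*, *Gsdmc2* and *Gsdmc4* were not matched. They were searched on both strands for the interferon-stimulated response element (in 3.44% of 32851 promoters), the gamma-activated site (TTCNNNGAA, in 8.30%) and the STAT6 site (TTC and GAA with 4 bases of any kind between, in 6.95%). The STAT6 letters are their own reverse complement. A single match was found, of the STAT6 letters in *Il18*, starting 46 bases before the start site, in capitals below. The RefSeq start of *Il18* lies before the GENCODE start given above. The 250 bases upstream are shown for the called genes that were matched.
Gsdmc3, chr15:63878559-63878808, minus strand: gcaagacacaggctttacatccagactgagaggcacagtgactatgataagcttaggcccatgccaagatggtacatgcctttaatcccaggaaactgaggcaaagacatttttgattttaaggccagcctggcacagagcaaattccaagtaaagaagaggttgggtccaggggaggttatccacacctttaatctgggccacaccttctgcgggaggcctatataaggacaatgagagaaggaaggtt
Il18, chr9:50554450-50554699, plus strand: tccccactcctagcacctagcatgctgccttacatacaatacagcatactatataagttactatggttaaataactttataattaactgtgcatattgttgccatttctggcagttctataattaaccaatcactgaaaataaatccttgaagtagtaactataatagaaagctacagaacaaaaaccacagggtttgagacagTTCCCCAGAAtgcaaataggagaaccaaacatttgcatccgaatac
Nlrp6, chr7:140920652-140920901, plus strand: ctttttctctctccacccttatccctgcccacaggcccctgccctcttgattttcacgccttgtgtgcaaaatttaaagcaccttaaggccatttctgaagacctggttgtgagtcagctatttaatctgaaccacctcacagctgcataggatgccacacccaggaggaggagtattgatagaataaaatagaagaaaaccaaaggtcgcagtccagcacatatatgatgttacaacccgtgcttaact
A match is a run of letters and not a measured binding site, and these windows say nothing of sites elsewhere.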

How the data were processed

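RNA-seq was made from 18 colon libraries, 3 in each of 6 groups set by the genotype and treatment labels. The authors deposited raw read counts per gene, in 2 lanes per library. Their processing notes name HISAT2 and featureCounts of Subread with GRCm38, and the methods of the study name TopHat2; versions, the strand setting and the treatment of reads with several alignments are not given in the sources used here. Lanes were summed, to 17.6 to 27.4 M reads per library (median 19.6 M), a depth that left the spread between libraries (biological coefficient of variation 0.315) and not counting error as the main limit. Gene IDs were mapped to symbols with GENCODE M21 (47310 of 47729).

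The lists of genes and members were chosen with earlier results of these data known. Genes passing edgeR's filterByExpr by group (16937) were fitted with the quasi-likelihood model of edgeR 4.0.16 in R 4.3.3 (TMM scaling, robust, 1 mean per group, all 18 libraries), tested two-sided with Benjamini-Hochberg adjustment over all tested genes, and called at an adjusted p under 0.05. The interaction tests compared the treatment effects of the genotypes. CPM used TMM-scaled library sizes, and RPKM also the gene length given with the counts. Marker lists were those of epithelium, goblet cells, tuft cells, macrophages, neutrophils, T and NK cells, B and plasma cells, smooth muscle, and enteric neurons and glia. Pathway genes were named as the up to 5 called genes with the largest changes in each direction in each comparison, apart from 1 gene that is not reported here. Alternatives were RLE and upper-quartile scaling, no filter, the compared groups alone, a term for *Xist* (at or above 100 CPM) or *Hoxb13* (at or above 10 CPM), a replicate block in the controls, DESeq2 1.42.0, summing *Gsdmc2* to *Gsdmc4*, and leaving out each library. The fit was tested on simulated counts. Sequences came from GENCODE M21 and RefSeq (GRCm38.p6), read with Python 3.11.15 and Biopython 1.88, and figures were drawn with matplotlib 3.10.9.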

Additional observations from a re-analysis of the deposited data

How the results depend on the processing

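Of the 5 calls among the 10 genes, repeated under each alternative, 46 results kept the call and 19 lost it, with 0 turned in direction. Of those of the named pathway genes, 359 kept the call, 192 lost it and 3 turned in direction. Between genotypes, where 0 genes were called, fitting the control groups alone gave 2 (*Casp4* and *Nlrp6*) and DESeq2 gave 1 in controls, 3 in recovery and 1 on average. With the *Hoxb13* term 1 was called in recovery, and leaving out 1 library gave 0 to 1 on average (1 without WT AOM/DSS replicate 2). For WT recovery against control, 0 genes were called with no filter, 3 with the *Xist* term, 4 with DESeq2 and 0 to 3 when 1 library was left out. The *Hoxb13* term gave 1, *Gsdmc2* in place of *Nlrp6*. For *Cldn2*KO recovery it gave 0, and the 6 libraries alone gave 4, with *Gsdmd* and *Casp4* added and *Gsdmc4* lost. For AOM/DSS, fitting the compared groups alone gave 0 genes in WT and 3 in *Cldn2*KO mice. DESeq2 called 1 gene for the genotype difference in the recovery response.

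With the 3 gasdermin C genes summed, the average genotype difference was -0.059 and the genotype difference in the AOM/DSS response 0.067, against 0.01 and -0.20 for *Gsdmc4*, and neither was called. With the *Hoxb13* term *Nlrp10* turned to 2.24 in WT and 2.48 in *Cldn2*KO recovery, and *Gsdme* to -1.02 in *Cldn2*KO recovery. The cause of these shifts was not tested. Over all genes, calls between the controls numbered 199, and 688 with DESeq2 and 131 with those groups alone. They numbered 165, 1351 with DESeq2 and 538 with the *Hoxb13* term in recovery, and 254 and 902 with DESeq2 on average. For *Cldn2*KO recovery they numbered 3291, and 133 with the *Hoxb13* term. Fitting the compared groups alone moved them from 1761 to 7 in WT and from 33 to 920 in *Cldn2*KO AOM/DSS. DESeq2 moved the genotype difference in the recovery response from 22 to 877.

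Same-numbered controls of the 2 genotypes had correlations of 0.17, 0.01 and 0.08 in their deviations, so the numbers were not taken to pair them, and with the replicate block 0 of the 10 genes and 179 genes in all were called. Limits were 3 libraries per group, the wide spread of the gasdermin C genes, reads shared among near-identical copies, and recovery libraries that differed from the others in position markers. Another was the sex-linked *Xist*, which was uneven between the groups.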
